A study of Mus musculus with 30 samples.

Results

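The ephrin, netrin and Slit guidance system was examined in CT-26 and Colon 26, a pair of murine colorectal carcinoma lines derived from BALB/c mice, by RNA-seq of cultured cells and of subcutaneous tumors. The list held 41 mouse genes taken by family, with no threshold on measured values: the Eph receptors, their ephrin-A and ephrin-B ligands, the netrins and the related Ntng genes, the Slits, the Robo receptors, and the netrin receptors Unc5a to Unc5d, Dcc and Neo1. Of these, 40 were among the 53431 genes of the table, and Ntn3 was not analysed here. Counting reads per gene gave 30 libraries in 8 groups: 3 cultures of each line, and 4 tumors of each model at each of 3 nominal volumes, 100, 400 and 800 mm3. The measured volumes were 103.33 to 145.86 mm3 for CT-26 and 102.9 to 124.88 mm3 for Colon 26 in the 100 mm3 groups. They were 400.47 to 464.68 and 401.52 to 466.73 mm3 in the 400 mm3 groups, and 810.36 to 938.57 and 807.93 to 963.18 mm3 in the 800 mm3 groups. The tumors grew under the skin of the right flank in BALB/c females, whose ages were not given in the sources used here. No sample label names an antibody or a genetic change, so the tumors were taken as untreated, although the treatment text of the labels also describes antibody dosing. Each model is a single established line. The study lists ATCC as the source of CT-26 and both RIKEN and Nanjing CoBioer as sources of Colon 26, and does not say which stock of Colon 26 gave the cultures and which the tumors. Nothing says that the 3 cultures of a line were independent, so p-values for cultures measure the spread between these libraries, which may be technical. The study contrasted these models because CT-26 is the more sensitive to anti-PD-1, and the question here is where their guidance genes differ in culture and in tumors of each size.

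Ephs are receptor tyrosine kinases whose ephrin ligands are held on the surface of neighbouring cells, the A ligands by a lipid anchor and the B ligands by a transmembrane segment, and binding signals into both cells. In the intestine, EphB receptors and ephrin-B ligands sort cells along the crypt, and EphB2 and EphB3 are known Wnt target genes. Netrins are laminin-related proteins that attract through Dcc and neogenin (Neo1) and repel through the Unc5 receptors, which are also known as dependence receptors. Slits are large secreted proteins that repel cells and growth cones through Robo receptors. In solid tumors the same molecules are also used by blood vessels. Robo4 is largely an endothelial gene, and ephrin-B2 and Unc5b are known in arterial endothelium.

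Total counts ran from 21384712 to 39722570 per library. The Colon 26 cultures were sequenced more deeply than the CT-26 cultures and carry library numbers from a separate series, so that in cultures the number series, the depth and the model cannot be told apart. Tumors of both models lay between 22923575 and 35681896. Where Colon 26 cultures are set against Colon 26 tumors, the number series and the depth likewise cannot be told apart from culture. A comparison of that change with the change in CT-26 carries the same limit. The carcinoma label was checked on 6 epithelial markers. Their summed level was 16.11 to 16.82 CPM (counts scaled to library size) in CT-26 cultures and 0.1353 to 0.2166 CPM in Colon 26 cultures, with Epcam at 0 in both. Markers of 10 endothelial genes summed to 16.65 to 18.64 CPM in CT-26 and 1.515 to 1.757 CPM in Colon 26 cultures. In these cultures 5 and 4 of the 10 were above 3 counts in any library, and all 10 were in tumors of both models. The 7 macrophage markers summed to 61.44 to 68.68 CPM in CT-26 and 3.856 to 4.909 CPM in Colon 26 cultures. Of these, 6 and 3 were above 3 counts in any library. CPM values are counts divided by the library total times its TMM scaling factor. They serve to compare one gene between libraries.

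Epha2, an ephrin-A receptor of epithelial and tumor cells, was the most abundant guidance transcript in cultures of both lines on the length-corrected FPKM scale. Its mean level was 120.3 ± 1.22 FPKM in CT-26 and 136.6 ± 4.25 FPKM in Colon 26 cultures (SD, n = 3). Slit2 came next in both, at a mean of 57.56 FPKM in CT-26 and 96.93 FPKM in Colon 26. The lines then parted. Neo1 came after Slit2 in CT-26 at 43.84 FPKM, followed by Unc5b at 16.54 and Efnb2 at 12.06 FPKM. In Colon 26 Unc5b at 49.46 FPKM and Slit3 at 42.49 FPKM stood above Neo1 at 35.16 FPKM. Epha2 and Slit2 in tumors of 100 mm3 remained on top, at 45.2 ± 5.18 and 42.84 ± 9.4 FPKM in CT-26 (SD, n = 4), and their levels overlapped there.

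The ligand classes were made up of different genes in the cultures of each line. Ephrin-B ligands summed to a mean of 12.61 FPKM in CT-26 cultures, 95.7% of it Efnb2, and to 1.782 FPKM in Colon 26 cultures, of which Efnb1 made 60.9% and Efnb2 22.2%. Netrins summed to 4.329 FPKM in CT-26 cultures, 60.9% of it Ntn5 and 38.8% Ntn4. They summed to 2.45 FPKM in Colon 26, with 87.0% Ntn4 and 11.5% Ntn1. Slits summed to 63.35 FPKM in CT-26 cultures, where Slit3 made 8.93%, and to 139.4 FPKM in Colon 26, where Slit3 made 30.5%. The Slit class in tumors of 100 mm3 was close in sum and makeup, at 79.1 and 72.96 FPKM with Slit3 at 45.8% and 45.1%, while the ephrin-B class stayed apart at 14.04 and 2.958 FPKM. Netrin receptors in cultures were mostly Neo1 in CT-26, at 72.6% of 60.39 FPKM. They were mostly Unc5b in Colon 26, at 58.4% of 84.63 FPKM. The Robo genes were scarce in cultures, at 0.1447 and 0.1251 FPKM in sum. They reached 3.873 and 3.411 FPKM in tumors of 100 mm3, 96.6% and 89.8% of it Robo4. Robo1 and Robo2 stood there at 0.07012 and 0.02923 FPKM in CT-26, and at 0.1744 and 0.1527 FPKM in Colon 26.

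**Figure D1:**
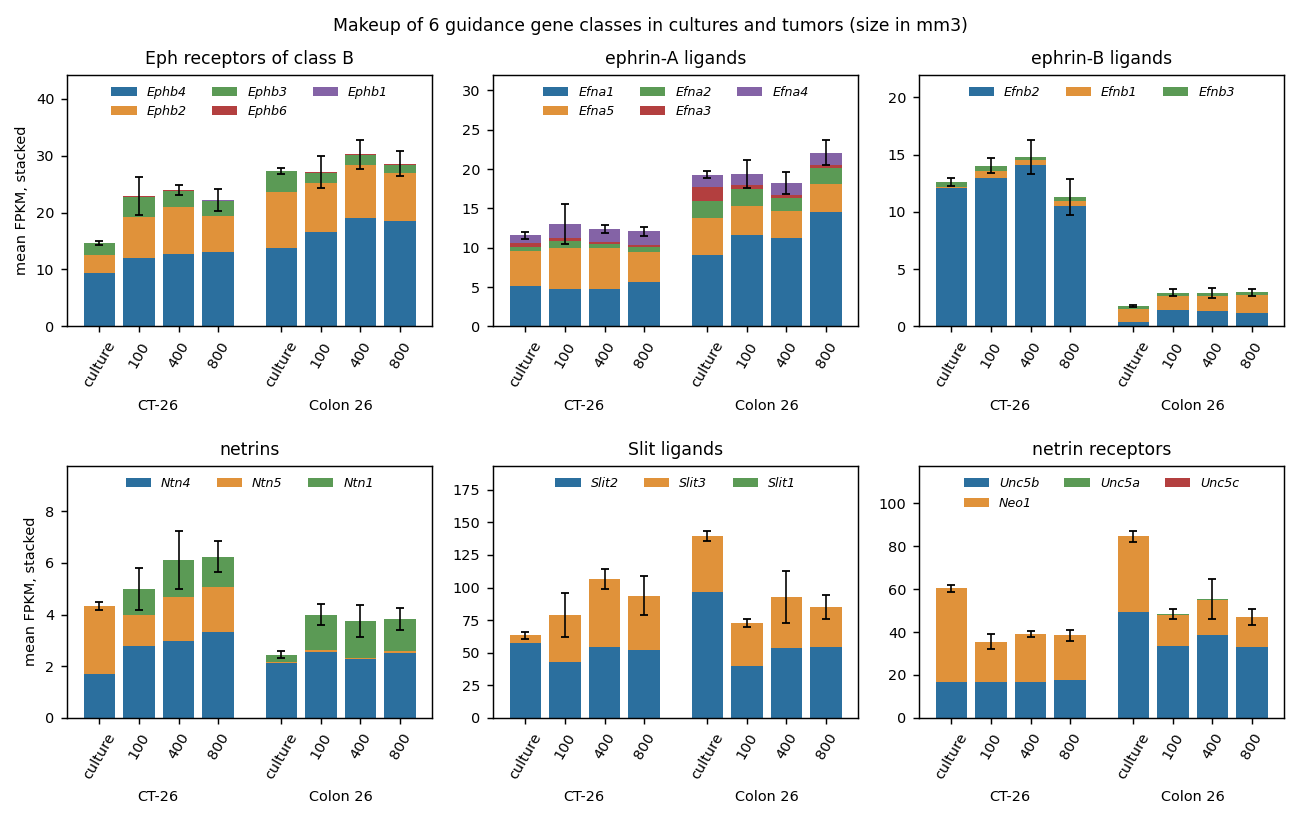
Stacked bars give the mean FPKM of each gene within 6 classes of guidance genes, for the 8 groups of model and culture or tumor volume; the error bar is the SD of the class sum over 3 cultures or 4 tumors. The ephrin-B bar is mostly Efnb2 in CT-26 cultures (95.7%) and tumors of 100 mm3 (92.3%) and far lower in Colon 26, and the Slit bars of the models are level in tumors of 100 mm3.

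Detection differed mainly between culture and tumor. Members above 3 counts in at least 1 library numbered 23 in CT-26 and 24 in Colon 26 cultures, and 33 in tumors of 100 mm3 of either model. Of the 40 members, 8 passed the filter on low counts in no comparison: Epha5, Epha6, Epha7, Epha8, Epha10, Ntng1, Unc5d and Dcc. Epha8 had the highest count of these in any library, 17, and Dcc, the attractive netrin receptor lost from many human colorectal cancers, had at most 3. The other 32 were tested in at least 1 comparison.

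Colon 26 and CT-26 cultures differed in 14 of 24 guidance genes tested (58.3%), of which 10 were higher and 4 lower in Colon 26. A gene was called when edgeR's quasi-likelihood test gave a Benjamini-Hochberg adjusted p over all genes of at most 0.1 and the change was at least 2-fold, a log2 fold change of 1. Over all genes 22.9% were called, 10.6% higher and 12.3% lower. The higher genes were the receptors Epha1, Ephb2, Robo3 and Unc5b and the ligands Efna2, Efna3, Efnb1, Ntn1, Ntng2 and Slit3, and the lower genes were Efnb2, Ntn5, Slit1 and Robo2. The median log2 fold change was 0.75 over the members and 0.01 over all genes tested. For tumors of 100 mm3, 13 of 27 members tested were called, 10 higher and 3 lower in Colon 26 (all genes 13.2%, 6.17% higher and 7.06% lower). At 400 mm3 it was 9 of 27, 7 higher and 2 lower (all genes 14.3%, 6.48% and 7.79%). At 800 mm3 it was 10 of 27, 7 higher and 3 lower (all genes 14.1%, 6.5% and 7.62%). The median log2 fold change over the members was 0.28, 0.0 and 0.02 at the 3 sizes, against 0.0, 0.03 and −0.01 over all genes tested. In tumors, fewer cells of a type and less RNA per cell cannot be told apart. The study had already named axon guidance as the top pathway among genes differing in both its culture and its tumor comparisons. Those comparisons used these same data, so a share of guidance genes above that of all genes is not independent evidence.

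Of the guidance genes, 5 were called between the models in cultures and at all 3 tumor sizes, with the same direction each time: Efnb2 and Ntn5 were lower, and Ntng2, Efnb1 and Efna2 higher in Colon 26. All 5 encode ligands or ligand-like proteins, but this does not set ligands apart from receptors. The receptors Epha3, Epha4, Ephb1, Ephb6, Robo1, Robo4, Unc5a and Unc5c were not tested in cultures. The receptor Unc5b was called in cultures and, among tumors, passed the 2-fold threshold at 400 mm3 alone. The share of all genes called in cultures and at all 3 tumor sizes was not counted. Efna1 and Robo1 were called at the 3 tumor sizes and not in cultures, and 15 members were called at 1 tumor size or more. Neither of these was counted over all genes.

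Of the 5 guidance genes called between the models at every stage, the promoter windows of the 4 whose window holds no annotated exon are shown. Each window is the 250 bases before the RefSeq start on GRCm38.p6, 5′ to 3′ on the strand of the gene, with CpG dinucleotides in capitals. The Efnb2 window is chr8:8661243-8661492 on the minus strand and that of Efnb1 chrX:99135811-99136060 on the plus strand. That of Efna2 is chr10:80179232-80179481 on the plus strand, and that of Ntn5 chr7:45683772-45684021 on the plus strand.
Efnb2: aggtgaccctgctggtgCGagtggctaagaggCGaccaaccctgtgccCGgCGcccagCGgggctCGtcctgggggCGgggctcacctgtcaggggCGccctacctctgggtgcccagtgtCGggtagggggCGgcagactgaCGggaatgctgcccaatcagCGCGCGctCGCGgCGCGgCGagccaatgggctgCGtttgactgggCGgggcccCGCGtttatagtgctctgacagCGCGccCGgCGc
Efnb1: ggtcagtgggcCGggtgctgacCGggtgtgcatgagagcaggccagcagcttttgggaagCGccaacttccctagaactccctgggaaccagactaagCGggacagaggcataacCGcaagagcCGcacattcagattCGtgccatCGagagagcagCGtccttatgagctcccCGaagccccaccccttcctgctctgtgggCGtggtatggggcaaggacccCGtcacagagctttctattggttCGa
Efna2: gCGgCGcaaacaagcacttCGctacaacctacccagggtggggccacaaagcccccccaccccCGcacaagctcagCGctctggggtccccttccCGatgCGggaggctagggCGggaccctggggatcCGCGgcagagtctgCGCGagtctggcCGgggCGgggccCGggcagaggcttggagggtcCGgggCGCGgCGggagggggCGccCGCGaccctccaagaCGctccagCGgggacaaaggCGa
Ntn5: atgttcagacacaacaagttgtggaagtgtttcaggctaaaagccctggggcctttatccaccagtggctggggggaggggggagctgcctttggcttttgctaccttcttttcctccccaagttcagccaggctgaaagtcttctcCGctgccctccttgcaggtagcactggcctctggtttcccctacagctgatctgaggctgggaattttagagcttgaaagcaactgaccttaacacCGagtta
These windows differ widely in CpG content. That of Efnb2 holds 27 CpG at 72.0% GC and that of Efna2 25 at 73.6%. That of Efnb1 holds 13 at 60.0% and that of Ntn5 2 at 52.8%, against a median of 6 over 32851 windows of the same length. At least 20 CpG were found in 18 of the 41 windows matched to 36 members and in 17.9% of all windows. The GC box GGGCGG, searched on both strands, is present in the windows of Efnb2 and Efna2, in 28 of the 41 windows and in 32.7% of all windows. The TCF/LEF-type motif CTTTGAT, searched on both strands, is in none of the 41 windows and in 3.2% of all, which says only that these letters are not in these 250 bases.

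Efnb2, the transmembrane ligand of EphB4 and of other EphB receptors, was the most abundant of the 5 in CT-26. Its gene lies at chr8:8617434-8661242 on the minus strand of GRCm38. It stood at 59.39, 58.77 and 57.05 CPM in CT-26 cultures and at 1.867, 1.588 and 2.026 CPM in Colon 26 cultures, which was 30.8-fold lower in Colon 26 (log2 −4.94 ± 0.07, SE, edgeR adjusted p = 3.304e-18). In tumors of 100 mm3 the values were 62.96, 64.36, 59.5 and 63.42 CPM for CT-26, with 7.72, 5.747, 6.255 and 7.016 CPM for Colon 26. No library of one model reached the range of the other at any stage. The log2 fold change in tumors was −3.24 ± 0.10 at 100 mm3, −3.41 ± 0.13 at 400 mm3 and −3.21 ± 0.14 at 800 mm3 (edgeR adjusted p = 1.707e-07, 7.727e-07 and 1.461e-07), or 9.42-, 10.7- and 9.23-fold. The gap was thus smaller in tumors than in culture, by 1.71 ± 0.13 on the log2 scale at 100 mm3 (interaction, edgeR adjusted p = 3.087e-07). Efnb2 rose 3.66-fold from culture to tumor in Colon 26 (adjusted p = 4.129e-06) and gave a log2 fold change of 0.11 in CT-26 (adjusted p = 0.125). Efnb2 is also known in arterial endothelium. The endothelial markers summed to 1.515 to 1.757 CPM in Colon 26 cultures and 143.5 to 199.7 CPM in its tumors of 100 mm3. In CT-26 they summed to 16.65 to 18.64 CPM in cultures and 73.94 to 254.5 CPM in tumors of 100 mm3. Their part in the result was not tested.

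Ntn5, a little-studied member of the netrin family, was higher in CT-26. Its gene is at chr7:45684022-45694556 on the plus strand of GRCm38, and 23.4% of its exon length overlaps Sec1 on the other strand, so that without strand information some reads could belong to either. Cultures of CT-26 gave 4.375, 4.603 and 4.298 CPM. Those of Colon 26 gave 0.02706, 0.04813 and 0.09763 CPM, at most 4 counts in a library. This was 68.5-fold lower in Colon 26 (log2 −6.10 ± 0.29, edgeR adjusted p = 1.122e-11). CT-26 tumors of 100 mm3 stood at 2.11, 2.059, 1.989 and 1.922 CPM. Those of Colon 26 had at most 3 counts each, so the difference there was at least 19.4-fold (edgeR adjusted p = 7.349e-06). At 400 mm3 CT-26 values were 3.509, 3.546, 3.531 and 1.112 CPM and 2 of the 4 Colon 26 tumors had no count (log2 −5.97 ± 0.73, adjusted p = 0.0002582, and −7.47 without Colon 26 tumor c). At 800 mm3 CT-26 stood at 2.649 to 3.596 CPM and Colon 26 at 0.03689 to 0.1596 CPM (log2 −4.99 ± 0.32, adjusted p = 1.454e-06). Within CT-26, Ntn5 fell 2.18-fold from culture to tumors of 100 mm3 (edgeR adjusted p = 0.0001612).

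Ntng2, a membrane-anchored relative of the netrins that binds a partner at synapses, had the opposite pattern. Its gene is at chr2:29194541-29253005 on the minus strand, and 14.0% of its exon length is shared with 6530402F18Rik on the same strand. No Ntng2 read was counted in any CT-26 culture, and Colon 26 cultures stood at 9.442, 9.337 and 8.86 CPM, at least 73.5-fold higher (edgeR adjusted p = 6.426e-13). Tumors of 100 mm3 gave 0.5064, 1.471, 0.5849 and 0.6863 CPM for CT-26 and 10.63, 9.707, 11.12 and 9.492 CPM for Colon 26. The fold was 12.3 at 100 mm3, 14.5 at 400 mm3 and 16.6 at 800 mm3 (log2 3.62 ± 0.31, 3.86 ± 0.32 and 4.05 ± 0.18, edgeR adjusted p = 2.467e-05, 3.614e-05 and 1.723e-07). Tumors of CT-26 were at least 6.48-fold above their cultures (adjusted p = 0.001286), whereas the Colon 26 log2 fold change was 0.15 (adjusted p = 0.1136). No value of the models overlapped at any stage.

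Efnb1, an X-linked ephrin-B ligand at chrX:99136130-99148991 on the plus strand, was the main ephrin-B ligand of Colon 26 cultures. It stood at 0.512, 0.594 and 0.4591 CPM for CT-26, with 3.49, 3.369 and 3.368 CPM for Colon 26 cultures, 6.7-fold higher (log2 2.74 ± 0.19, edgeR adjusted p = 1.688e-09). In tumors of 100 mm3 the values were 1.139, 1.765, 2.457 and 2.539 CPM for CT-26, with 4.619, 4.647, 4.082 and 2.93 CPM for Colon 26. The gap there was the smallest of the 4 stages (log2 1.03 ± 0.27, adjusted p = 0.01136). Its log2 value went to 0.86 to 0.98, under the 2-fold threshold, without tumor a or b of CT-26 or of Colon 26. At 400 mm3 Colon 26 tumors ran from 2.891 to 6.262 CPM and CT-26 tumors from 0.6524 to 1.753 CPM, and at 800 mm3 from 4.15 to 6.512 and from 1.483 to 1.839 CPM (log2 1.75 ± 0.36 and 1.61 ± 0.18, adjusted p = 0.003813 and 4.735e-05). Efnb1 rose from culture to tumor in CT-26 (log2 1.92 ± 0.34, adjusted p = 0.001088), and the log2 fold change in Colon 26 was 0.26 (adjusted p = 0.1782, and interaction −1.71 ± 0.37, adjusted p = 0.001868).

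Efna2, a lipid-anchored ephrin-A ligand at chr10:80179482-80190010 on the plus strand, had the narrowest range of log2 differences of the 5 over the 4 stages. Cultures gave 1.396, 1.299 and 1.335 CPM for CT-26, with 4.058, 4.813 and 3.954 CPM for Colon 26 (log2 1.72 ± 0.16, edgeR adjusted p = 5.048e-08). Tumors of 100 mm3 gave 1.604, 1.602, 1.716 and 1.99 CPM for CT-26, with 5.201, 3.492, 4.157 and 4.746 CPM for Colon 26. The log2 fold change was 1.33 ± 0.17, 1.61 ± 0.19 and 1.83 ± 0.26 at 100, 400 and 800 mm3 (adjusted p = 0.0002269, 0.0002034 and 0.0002301). The highest CT-26 library lay below the lowest Colon 26 library at each stage.

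**Figure D2:**
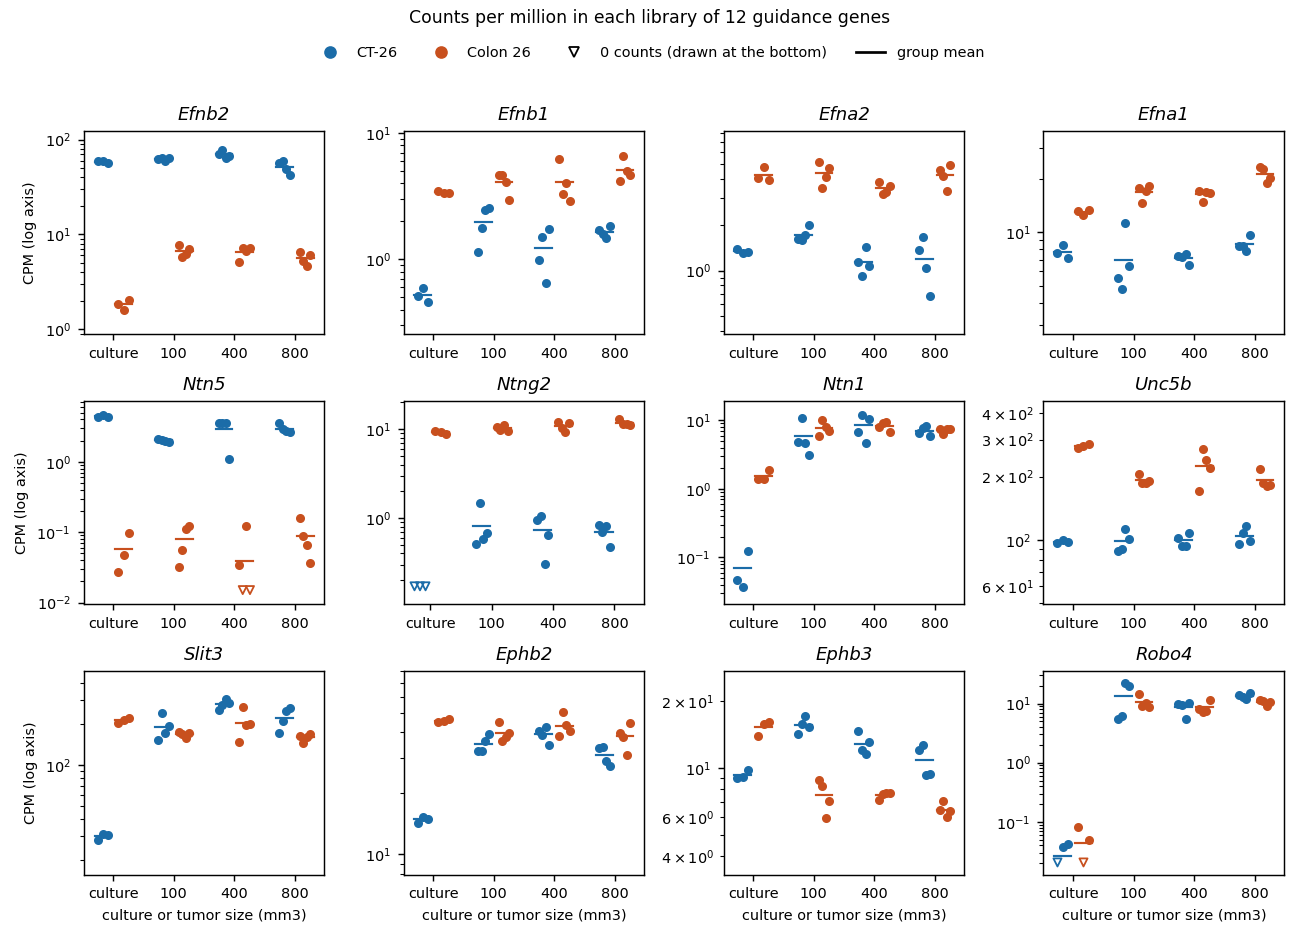
Each panel plots the CPM of 1 of 12 guidance genes on a log axis in the 8 groups of model and culture or tumor volume; a point is a library, a short line the group mean, and an open triangle at the bottom a library with no count. Efnb2 and Ntn5 are lower and Ntng2, Efnb1 and Efna2 higher in Colon 26 in all 4 stages, while the culture gaps of Slit3, Ntn1 and Ephb2 are under 2-fold in tumors.

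The cultures also differed in 7 members that were not called in tumors, which was not counted over all genes. Slit3, Ntn1, Ephb2 and Efna3 were tested at the 3 tumor sizes, Robo2 passed the filter on low counts at 800 mm3 alone, and Robo3 and Slit1 passed it at no tumor size and so could not be called there. Slit1 and Robo2 were the higher in CT-26 cultures and the other 5 in Colon 26 cultures.

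Slit3, a Slit ligand, was at 28.07, 31.0 and 30.63 CPM for CT-26, with 204.4, 215.6 and 222.5 CPM for Colon 26 cultures, 7.41-fold higher (log2 2.89 ± 0.04, edgeR adjusted p = 9.985e-18). CT-26 tumors of 100 mm3 reached 152.3, 242.4, 171.8 and 194.9 CPM, and Colon 26 stood at 174.2, 168.4, 159.1 and 171.8 CPM, inside that range (log2 −0.19, adjusted p = 0.2681). At 400 and 800 mm3 CT-26 ran from 256.1 to 309.8 and from 171.5 to 264.2 CPM, and Colon 26 from 149.2 to 266.1 and from 145.9 to 170.1 CPM. The log2 fold changes of −0.48 and −0.49 (adjusted p = 0.03538 and 0.007086) were below the 2-fold threshold. Slit3 thus rose 6.42-fold from culture to tumor in CT-26 (adjusted p = 4.771e-06), against a log2 fold change of −0.35 in Colon 26 (interaction −3.07 ± 0.18, edgeR adjusted p = 2.704e-08). Fibroblast markers summed to 1173 to 1250 CPM in CT-26 cultures and 3185 to 4380 CPM in CT-26 tumors of 100 mm3, and to 1377 to 1458 and 4725 to 5637 CPM in Colon 26. Their part in the result was not tested.

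Ntn1, the founding netrin, was nearly absent from CT-26 cultures, with at most 3 counts in a library. Colon 26 cultures gave 1.38, 1.396 and 1.904 CPM, at least 12.4-fold higher (edgeR adjusted p = 4.523e-08). Tumors of 100 mm3 gave 4.811, 10.98, 4.601 and 3.089 CPM for CT-26, with 5.911, 10.2, 7.902 and 7.057 CPM for Colon 26, with overlapping ranges at this and both larger sizes. The log2 difference between the models was 0.39, −0.04 and 0.02 at 100, 400 and 800 mm3 (adjusted p = 0.407, 0.9207 and 0.9345). Ntn1 rose in both models from culture to tumor, at least 46.8-fold in CT-26 and 4.98-fold in Colon 26 (edgeR adjusted p = 7.924e-05 and 1.153e-05).

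Ephb2, an EphB receptor of crypt cells, was at 14.34, 15.3 and 15.02 CPM for CT-26, with 45.1, 45.24 and 46.5 CPM for Colon 26 cultures, 3.17-fold higher (log2 1.67 ± 0.04, edgeR adjusted p = 8.332e-15). CT-26 tumors of 100 mm3 rose to 32.41, 32.29, 36.26 and 39.16 CPM, 2.36-fold above their cultures (adjusted p = 7.447e-06), and Colon 26 tumors stood at 44.93, 36.11, 37.71 and 39.66 CPM. The model difference in tumors was 0.17, 0.14 and 0.30 on the log2 scale (adjusted p = 0.1595, 0.3036 and 0.04567), none of it past 2-fold. The change from culture to tumor differed between the models by −1.49 ± 0.11 on the log2 scale (interaction, adjusted p = 2.356e-07).

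Efna3, Slit1, Robo2 and Robo3 were called in cultures at low levels. Efna3, an ephrin-A ligand, stood at 0.7913, 1.336 and 1.169 CPM for CT-26, with 4.275, 3.369 and 3.954 CPM for Colon 26 cultures (log2 1.84 ± 0.19, edgeR adjusted p = 1.672e-07). It fell in Colon 26 tumors to 1.001, 0.8525, 0.7116 and 1.321 CPM (log2 −2.0 ± 0.21, adjusted p = 2.294e-05). Of its exon length, 14.1% overlaps Gm15998 on the other strand. Slit1, a Slit of the nervous system, was at 0.8844, 0.9281 and 0.5425 CPM for CT-26, with 0.08117, 0.1684 and 0.04881 CPM for Colon 26 cultures (log2 −2.87 ± 0.43, adjusted p = 1.498e-05). It fell in CT-26 tumors of 100 mm3 to 0.07799 to 0.1688 CPM (log2 −2.66 ± 0.37, adjusted p = 0.0002749). Robo2, a Slit receptor, was at 0.6051, 0.6682 and 0.5843 CPM for CT-26, with 0.2435, 0.1203 and 0.122 CPM for Colon 26 cultures (log2 −1.88 ± 0.38, adjusted p = 0.0002525). Its tumors of 100 mm3, not tested between the models, ran from 0.1266 to 0.273 CPM in CT-26 and from 0.2261 to 1.236 CPM in Colon 26, where 3 of the 4 lay above every CT-26 tumor. Robo3, a Robo relative known from crossing axons, was at 0.1862, 0.1485 and 0.1252 CPM for CT-26, with 0.3517, 0.3128 and 0.5126 CPM for Colon 26 cultures, at most 21 counts (log2 1.40 ± 0.43, adjusted p = 0.007593). The 2 lines did not overlap in any of these 4 genes in culture, but the genes were taken because they were called there. The share of all genes without overlap was not counted.

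Epha1 and Unc5b were called in cultures and at 1 tumor size each. Unc5b was tested at all 3 sizes, and Epha1 passed the filter on low counts at 100 mm3 alone. Unc5b, a repulsive netrin receptor, was among the most abundant members. Cultures gave 96.63, 99.86 and 97.53 CPM for CT-26, with 273.7, 278.8 and 286.6 CPM for Colon 26 (log2 1.56 ± 0.03, edgeR adjusted p = 2.145e-16). Tumors of 100 mm3 gave 88.67, 90.12, 113.1 and 101.0 CPM for CT-26, with 204.5, 187.1, 187.3 and 190.1 CPM for Colon 26. The models did not overlap in Unc5b at any stage, and its log2 difference of 0.96, 1.18 and 0.87 at 100, 400 and 800 mm3 (adjusted p = 2.858e-05, 0.0001516 and 1.777e-05) crossed the 2-fold threshold only at 400 mm3. Epha1, an Eph receptor, was at 0.2793, 0.1856 and 0.2504 CPM for CT-26, with 0.3788, 0.6016 and 0.4149 CPM for Colon 26 cultures (log2 1.03 ± 0.38, adjusted p = 0.0218). Its tumors of 100 mm3 overlapped, at 0.211, 0.1307, 0.195 and 0.4118 CPM for CT-26, with 0.4199, 0.55, 0.2622 and 0.8254 CPM for Colon 26 (log2 1.08 ± 0.45, adjusted p = 0.07582). Neither Epha1 call was made by DESeq2 (log2 1.04 and 1.11). That in cultures was also lost with all 30 libraries in the fit (0.96) and without CT-26 b (0.87) or Colon 26 b (0.8). That at 100 mm3 was also lost at an adjusted p of 0.05, with no filter (1.1), and without any 1 of CT-26 a, b or c or Colon 26 b or d (0.79 to 1.06). The exons of Epha1 share 6.0% of their length with Zyx on the other strand.

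Among the 15 members called in tumors, 2 were tested and not called in cultures, Efna1 and Ephb3, and 6 were too low in cultures to be tested there. Of those not called in cultures, Efna1 and Robo1 were the members called at all 3 tumor sizes. This split was not counted over all genes.

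Efna1, an ephrin-A ligand of EphA2, gave 7.634, 8.427 and 7.136 CPM for CT-26, with 13.1, 12.47 and 13.38 CPM for Colon 26 cultures, a log2 difference of 0.80 that passed on p alone (edgeR adjusted p = 5.675e-08). In the 100 mm3 tumors it stood at 5.528, 4.772, 11.19 and 6.417 CPM for CT-26, with 17.8, 14.6, 16.97 and 18.24 CPM for Colon 26 (log2 1.27 ± 0.25, adjusted p = 0.002501). At 400 and 800 mm3 CT-26 ran from 6.543 to 7.561 and 7.852 to 9.66 CPM and Colon 26 from 14.78 to 17.07 and 18.85 to 23.34 CPM (log2 1.18 ± 0.10 and 1.31 ± 0.10, adjusted p = 3.69e-05 and 5.486e-06). Colon 26 was above CT-26 in every library at each stage.

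Robo1, a Slit receptor, was at most at 3 counts in every culture. Tumors of 100 mm3 gave 0.3376, 0.2288, 0.6629 and 0.8922 CPM for CT-26, with 1.97, 0.99, 1.011 and 1.197 CPM for Colon 26 (log2 1.27 ± 0.43, edgeR adjusted p = 0.03481). It was called at 400 and 800 mm3 too (log2 1.41 ± 0.35 and 1.11 ± 0.32, adjusted p = 0.009643 and 0.01348). Its call at 100 mm3 was lost without Colon 26 a (0.99) and that at 800 mm3 without CT-26 b (0.89) or Colon 26 a (0.93). Against culture, Robo1 was at least 17.1-fold higher in Colon 26 tumors (adjusted p = 4.567e-05).

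Epha4, Unc5a and Unc5c were called at 2 tumor sizes each, which for Epha4 were the 2 at which it was tested, and were too low in cultures to be tested between the lines. Epha4, an Eph receptor of both ephrin classes, was at 0.1266, 0.1307, 0.3509 and 0.2059 CPM for CT-26, with 0.5491, 0.5775, 0.5992 and 0.6603 CPM for Colon 26 tumors of 100 mm3 (log2 1.53 ± 0.33, edgeR adjusted p = 0.004656). It was at 0.03838 to 0.3421 against 0.6065 to 0.9091 CPM at 400 mm3 (log2 2.13 ± 0.50, adjusted p = 0.007546). Unc5a, a netrin receptor with no read in any culture, was at 0.211, 0.4249, 0.5849 and 0.5491 CPM for CT-26, with 1.163, 0.8525, 0.7865 and 0.8254 CPM for Colon 26 tumors of 100 mm3 (log2 1.01 ± 0.31, adjusted p = 0.02316). This call was lost without CT-26 a or b or Colon 26 a, at 0.81 to 0.99. At 800 mm3 the Unc5a difference was 1.43 ± 0.35 (adjusted p = 0.005863). Unc5c, another netrin receptor, was at 0.0844, 0.09806, 0.234 and 0.103 CPM for CT-26, with 0.7752, 0.5225, 0.412 and 0.4952 CPM for Colon 26 tumors of 100 mm3 (log2 2.06 ± 0.38, adjusted p = 0.00203). Its 800 mm3 difference of 2.27 ± 0.61 (adjusted p = 0.009836) became 3.42 without CT-26 tumor a. These 3 receptors and Robo1 are best known from the nervous system. The 5 Schwann and nerve markers summed to 4.895 to 7.551 CPM in CT-26 and 11.31 to 14.73 CPM in Colon 26 tumors of 100 mm3. In cultures they summed to 1.862 to 2.337 and 2.841 to 3.586 CPM. The 7 pericyte and smooth muscle markers summed to 115.9 to 255.8 and 271.5 to 356.5 CPM in these tumors. These markers already differed between the cultures, at 40.65 to 41.01 CPM in CT-26 and 148.6 to 159.3 CPM in Colon 26. Their part in these results was not tested.

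Ephb3, an EphB receptor of crypt base cells, changed sides between culture and tumor. Colon 26 was the higher in cultures, at 13.96, 15.69 and 16.06 CPM against 9.03, 9.133 and 9.807 CPM in CT-26, a log2 difference of 0.76 that passed on p alone (edgeR adjusted p = 1.049e-07). In tumors of 100 mm3 it was the lower, at 8.786, 8.277, 5.955 and 7.057 CPM against 14.26, 15.75, 17.08 and 15.24 CPM (log2 −1.06 ± 0.13, adjusted p = 0.0002079). CT-26 remained above Colon 26 at 400 mm3, at 11.55 to 14.59 against 7.138 to 7.733 CPM, and at 800 mm3, at 9.267 to 12.69 against 5.985 to 7.08 CPM, with log2 differences of −0.76 and −0.75 (adjusted p = 0.0004792 and 0.0009381) under the 2-fold threshold. The interaction of model and tissue was −1.81 ± 0.17 (edgeR adjusted p = 1.778e-06). The call at 100 mm3 was lost without CT-26 c (−1.0) or Colon 26 c (−0.94).

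Epha3 and Ephb1 were called between tumors at 1 size each, Epha3 of 2 sizes tested (100 and 400 mm3) and Ephb1 at 800 mm3, the size at which alone it was tested. Epha3, an Eph receptor, was at 0.103 to 0.4903 CPM in CT-26 and 0.5775 to 1.461 CPM in Colon 26 tumors of 100 mm3 (log2 1.55 ± 0.45, edgeR adjusted p = 0.01834). Ephb1 was at 0.3785, 0.4407, 0.4718 and 1.371 CPM for CT-26, with 0.3831, 0.1494, 0.1653 and 0.1107 CPM for Colon 26 tumors of 800 mm3 (log2 −1.70 ± 0.54, adjusted p = 0.02241, and −1.07 without CT-26 tumor d). Ephb4, the receptor of ephrin-B2, passed on p alone at every stage with Colon 26 the higher, at log2 differences of 0.53, 0.41, 0.51 and 0.43 (adjusted p = 1.877e-09, 0.02136, 0.00109 and 0.0007537), and so did Neo1 with CT-26 the higher, at −0.37, −0.41, −0.53 and −0.68 (adjusted p = 6.204e-08, 0.00145, 0.01387 and 0.0002391). Slit2 gave 0.73 in cultures (adjusted p = 5.406e-12) and −0.16, −0.09 and −0.02 in tumors (adjusted p = 0.3642, 0.6895 and 0.925). Efna5 stood at log2 differences of 0.11, −0.50, −0.65 and −0.26, Efnb3 at −0.38, −0.90, −0.45 and −0.66, and Ntn4 at 0.33, −0.17, −0.44 and −0.46, none called at any stage.

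**Figure D3:**
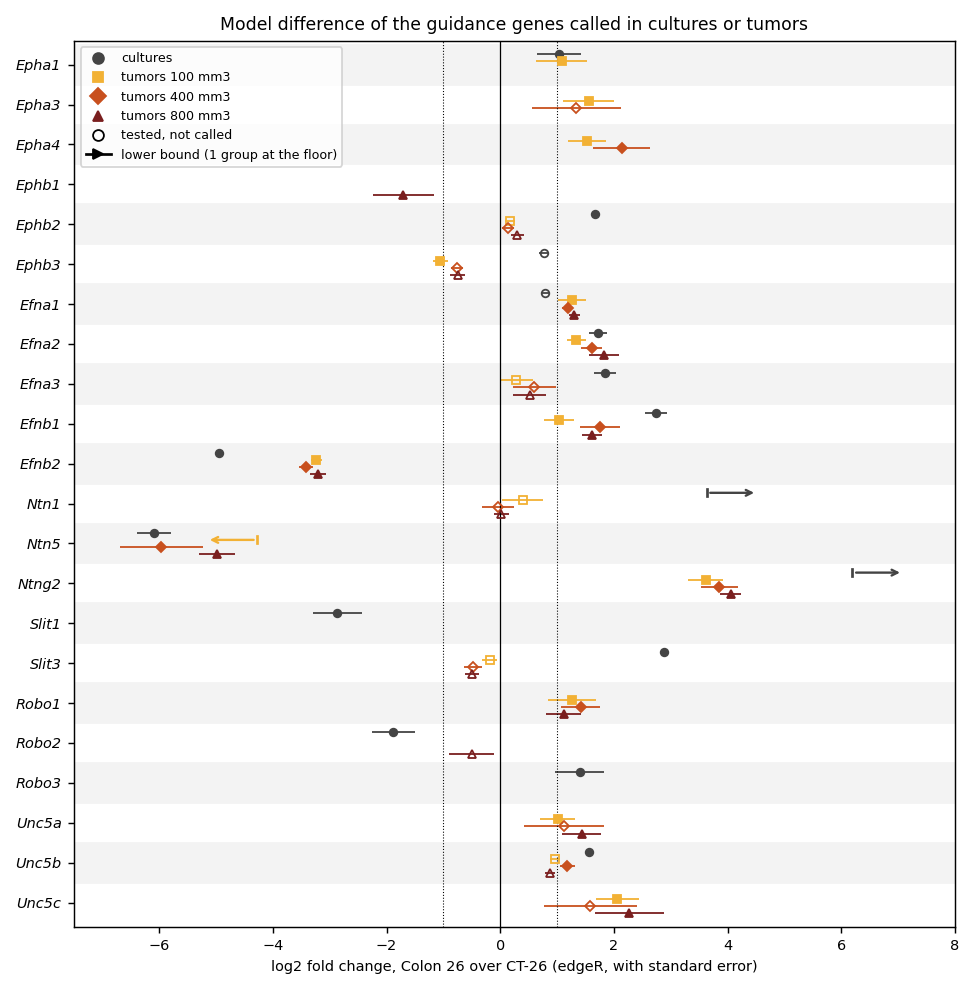
Points give the log2 fold change of Colon 26 against CT-26 with its SE for the 22 guidance genes called in at least 1 of the 4 comparisons, in cultures and in tumors of 100, 400 and 800 mm3; open points were tested and not called, arrows mark lower bounds where a group had at most 3 counts per library, and dotted lines mark 2-fold. Efnb2 and Ntn5 stay on the left and Ntng2 on the right at all 4 stages, and Ephb3 is right of 0 in cultures (0.76) and left of it in tumors (−1.06 at 100 mm3).

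Going from culture to tumors of 100 mm3 called 12 of 24 members tested in CT-26, 7 higher and 5 lower (all genes 32.2%, 22.2% higher and 10.1% lower). It called 16 of 29 in Colon 26, 10 higher and 6 lower (all genes 26.9%, 20.8% and 6.12%). Both models share the direction for 5 of the 6 members called in both, a share that was not counted over all genes. Ntn1, Robo4 and Unc5a were higher and Epha2 and Neo1 lower in tumors, and Robo2 was lower in CT-26 and higher in Colon 26. Among members tested in both models, Ephb2, Efnb1, Ntng2 and Slit3 were called higher in CT-26 and not in Colon 26, and Efnb2 was called higher and Ephb3, Efna3 and Slit2 lower in Colon 26 and not in CT-26. Ntn5 and Slit1, called lower in CT-26, passed the filter on low counts in that model only. Epha3, Epha4, Ephb6, Robo1 and Unc5c, called higher in Colon 26, and Robo3, called lower there, were not tested in CT-26. Epha3, for instance, had at most 1 count in a CT-26 culture and up to 15 in a CT-26 tumor of 100 mm3. Tumors also hold host cells. The 7 macrophage markers, for example, summed to 1261 to 1860 CPM in CT-26 tumors of 100 mm3 and to 1527 to 1902 CPM in those of Colon 26, far above the cultures. The part of these cells in the changes was not tested. For 4 of the CT-26 and 7 of the Colon 26 calls a group had no more than 3 counts per library. The Colon 26 fall of Ephb3 (log2 −1.01 ± 0.13, adjusted p = 9.238e-05) was lost without tumor c or d or culture b or c, at −0.99 to −0.9. That of Robo3 (−3.10 ± 0.73, adjusted p = 0.003895) became −4.76 without tumor c.

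Epha2 and Neo1 fell in both models. Epha2 was at 463.5, 488.2 and 475.6 CPM for CT-26, with 503.8, 521.2 and 521.5 CPM for Colon 26 cultures. It was at 211.3, 155.0, 182.9 and 165.0 CPM and 179.7, 195.7, 177.1 and 185.5 CPM in tumors of 100 mm3. This was 2.66-fold lower in CT-26 and 2.79-fold lower in Colon 26 tumors (edgeR adjusted p = 4.639e-06 and 6.841e-09), and the interaction of −0.12 ± 0.10 on the log2 scale was not past the threshold (adjusted p = 0.3903). Neo1, the receptor neogenin, went from 254.8, 282.2 and 267.0 CPM to 107.9, 128.8, 122.2 and 110.2 CPM in CT-26 and from 196.9, 197.5 and 207.5 CPM to 89.51, 87.5, 83.52 and 94.59 CPM in Colon 26 (log2 −1.18 ± 0.08 and −1.17 ± 0.05, adjusted p = 7.057e-06 and 4.743e-08), with an interaction of −0.04 (adjusted p = 0.7947). Slit2 fell 2.37-fold in Colon 26 (log2 −1.24 ± 0.06, adjusted p = 1.172e-07), with a log2 fold change of −0.41 in CT-26 (adjusted p = 0.04475).

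Robo4, the endothelial Robo, was at most at 3 counts in any culture. Tumors of 100 mm3 gave 5.444, 6.243, 22.27 and 19.73 CPM for CT-26, with 14.28, 9.13, 10.37 and 8.625 CPM for Colon 26, at least 107-fold and at least 140-fold above the cultures (edgeR adjusted p = 9.443e-05 and 3.319e-07). The endothelial markers in the same tumors, in the same order, summed to 73.94, 91.49, 254.5 and 201.7 CPM for CT-26, with 199.7, 152.2, 156.4 and 143.5 CPM for Colon 26. Among the CT-26 tumors, c and d had the highest values of Robo4 and of the marker sum. The part of endothelial cells in the Robo4 values was not tested. Between the models Robo4 gave log2 differences of −0.35, −0.02 and −0.37 at the 3 sizes (adjusted p = 0.5534, 0.952 and 0.01702), none past 2-fold.

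The change from culture to tumor of 100 mm3 differed between the models for 15 of 30 members tested (all genes 17.6%). It was the greater in Colon 26 for 7 (Epha4, Ephb6, Efnb2, Ntn5, Slit1, Robo1 and Robo2) and in CT-26 for 8 (Ephb2, Ephb3, Efna3, Efna4, Efnb1, Ntn1, Ntng2 and Slit3), where greater means higher on a signed scale. Robo2 moved in opposite directions. It fell in CT-26, to 0.1266, 0.1307, 0.273 and 0.2059 CPM (log2 −1.72 ± 0.34, edgeR adjusted p = 0.001977). It rose in Colon 26, to 0.2261, 1.045, 1.236 and 1.197 CPM (log2 2.50 ± 0.59, adjusted p = 0.003985), with an interaction of 4.17 ± 0.73 (adjusted p = 0.0003697). Slit1 gave 3.34 ± 0.74 (adjusted p = 0.002309, and 4.0 without Colon 26 culture b). Efna4, an ephrin-A ligand, stood at 1.629, 1.485 and 1.461 CPM for CT-26, with 2.11, 2.647 and 2.416 CPM for Colon 26 cultures and at 2.996, 2.092, 3.665 and 2.917 and 2.746, 1.402, 2.472 and 2.022 CPM in tumors of 100 mm3 (interaction −1.13 ± 0.32, adjusted p = 0.01121). Of its exon length, 10.5% overlaps 4731419I09Rik on the other strand. Its call was lost without Colon 26 tumor b (−0.97) or culture b (−1.0). For Epha4, Ephb6, Ntn1, Ntng2 and Robo1 at least 1 culture group, and for Ntn5 the Colon 26 tumors, had no more than 3 counts per library, so the size of the interaction is not given. The Ntn5 call (adjusted p = 0.09521) was lost in 8 of the fits that left out a library, and the Robo1 call without CT-26 culture c. Ephb6, an Eph receptor without kinase activity, was at 0.1396, 0.1114 and 0.04173 CPM in CT-26 and at 0 in Colon 26 cultures, and at 0.234 to 0.422 and 0.1938 to 0.3714 CPM in tumors of 100 mm3.

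**Figure D4:**
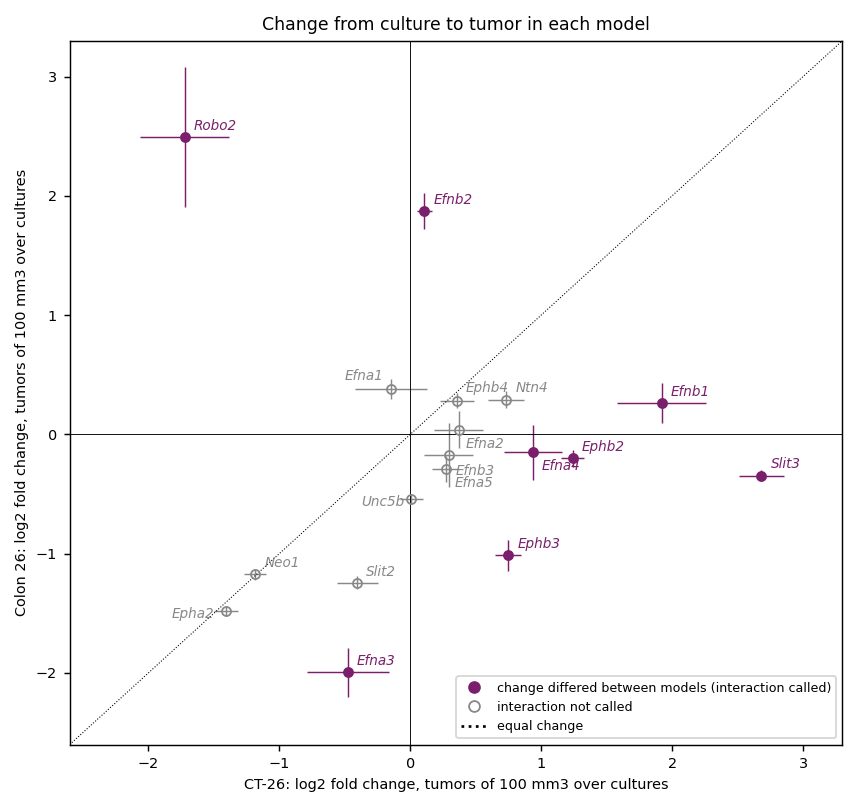
Each point is 1 of 18 guidance genes tested in both models with no group at or under 3 counts per library; the x axis is the log2 fold change of tumors of 100 mm3 against cultures in CT-26, the y axis that in Colon 26, with SE bars, and the 8 filled points had a called interaction. Slit3, Ephb2 and Efnb1 lie to the right of 0 on the CT-26 axis and near 0 on the Colon 26 axis, Efnb2 lies high on the Colon 26 axis, and Epha2 and Neo1 lie near the diagonal at about the same fall.

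Growth from 100 to 800 mm3 left nearly all guidance genes uncalled. In CT-26 none of 24 members was called by edgeR, nor was any gene of the table (0.0%), although 1610 genes had an unadjusted p under 0.05. That count of 0 was for the fit on these 8 libraries. Over all genes, edgeR on all 30 libraries called 92 and DESeq2 39, and no member was among them. In Colon 26, 2 of 28 members were called, both lower at 800 mm3 (all genes 1.33%). Epha3 went from 0.5775 to 1.461 CPM at 100 mm3 to 0.1277 to 0.3286 CPM at 800 mm3 in Colon 26 (log2 −2.13 ± 0.38, edgeR adjusted p = 0.02333), a call not made with all 30 libraries in the fit. Robo2 went from 0.2261, 1.045, 1.236 and 1.197 CPM to 0.3512, 0.1792, 0.3307 and 0.1476 CPM (log2 −1.85 ± 0.51, adjusted p = 0.08863). This call was lost without any 1 of tumors b, c or d of 100 mm3 or a to d of 800 mm3, at −2.05 to −1.68. Skeletal muscle markers were also lower in Colon 26 tumors of 800 mm3, and all 5 were called lower. Their sum was 194.0, 1281, 115.0 and 243.5 CPM in tumors a to d of 100 mm3, and 1.365 to 1.762 CPM at 800 mm3. Robo2 in the same tumors a to d of 100 mm3 was at 0.2261, 1.045, 1.236 and 1.197 CPM. The part of skeletal muscle in the result was not tested. The change with size differed between the models for none of 30 members by edgeR (all genes 0.0308%, 2031 genes at an unadjusted p under 0.05). DESeq2 called Robo2 (−2.82, adjusted p = 0.03925). So did edgeR without CT-26 tumor a of 800 mm3 (−2.95, adjusted p = 0.0769) or without Colon 26 tumor a of 100 mm3 (−3.12, adjusted p = 0.08386). Over all genes, 5 were called by edgeR, 114 by DESeq2, 131 without CT-26 tumor a of 800 mm3 and 4 without Colon 26 tumor a of 100 mm3.

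Partners and effectors of the 3 systems were counted from lists of their own, against the same 22.9% of all genes called in cultures and 13.2% in tumors of 100 mm3. Of 26 Eph effectors tested in cultures, 1 was higher and 3 lower in Colon 26, and of 28 in tumors of 100 mm3 none was higher and 4 were lower. The higher one was Arhgef15, an exchange factor that acts below Eph receptors, at a mean of 0.1486 CPM for CT-26, with 4.992 CPM for Colon 26 cultures (log2 5.06 ± 0.25, edgeR adjusted p = 1.566e-11). Among the lower ones, Tiam1, a Rac exchange factor, went from 22.33 to 0.7672 CPM. Grip1, a scaffold that binds ephrin-B tails, went from 10.63 to 0.7638 CPM (for the pair, log2 −4.80 ± 0.10 and −3.76 ± 0.16, adjusted p = 5.337e-16 and 1.764e-12).

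Of 17 netrin partners tested in cultures, 3 were higher and 2 lower in Colon 26, and of 18 in tumors of 100 mm3, 1 was higher and 1 lower. Ablim1, an actin-binding LIM protein, differed in opposite directions. It was the higher in Colon 26 cultures, at a mean of 1.929 against 0.5712 CPM (log2 1.81 ± 0.23, edgeR adjusted p = 2.35e-06). It was the lower in Colon 26 tumors of 100 mm3, at 11.13 against 35.68 CPM (log2 −1.69 ± 0.27, adjusted p = 0.0008229). Adora2b, an adenosine receptor reported to bind netrin-1, was at 0.7989 CPM for CT-26, with 2.436 CPM for Colon 26 cultures (log2 1.67 ± 0.23, adjusted p = 5.414e-06). Dapk1, a death-associated kinase below Unc5 receptors, averaged 1.313 CPM in CT-26 cultures and had at most 2 counts in a Colon 26 culture. Of 21 Slit-Robo partners tested in cultures, 2 were higher and 1 lower, and of 23 in tumors of 100 mm3, 1 was higher and 1 lower. Enah, an actin regulator that binds Robo1, was lower in Colon 26 in both, from 11.45 to 1.403 CPM in cultures and from 18.72 to 5.89 CPM in tumors of 100 mm3 (log2 −2.98 ± 0.11 and −1.68 ± 0.11, adjusted p = 4.618e-13 and 8.041e-06). The heparan sulfate proteoglycan Sdc1, a syndecan, was higher in both, from 15.11 to 89.33 CPM and from 70.35 to 151.4 CPM (log2 2.62 ± 0.04 and 1.10 ± 0.07, adjusted p = 2.547e-17 and 6.89e-06), while Gpc1 differed in opposite directions. Gpc1 was higher in Colon 26 cultures, at 214.6 against 105.6 CPM (log2 1.07 ± 0.04, adjusted p = 9.129e-14), and lower in Colon 26 tumors of 800 mm3, at 152.6 against 315.0 CPM (log2 −1.05 ± 0.12, adjusted p = 6.558e-05). Its interaction of model and tissue at 100 mm3 was −1.58 ± 0.08 (adjusted p = 1.148e-08). None of the partners on these lists was called with growth in either model.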

How the data were processed

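Poly-A RNA of 30 samples was sequenced as paired ends on a HiSeq X, and reads were quantified by the authors in Array Studio against Ensembl release 78; the aligner, build and strand handling are not given in the sources used here. The table deposited by the authors holds estimated counts (one value per gene and sample, from their quantification) for 53431 genes, 22.6% of the non-zero values not whole at a tolerance of 1e-06, and a second deposited table holds FPKM values of the same genes, made by the authors. Raw counts had been planned for, so each value was rounded before testing. All per-sample columns were used. Symbols were matched by identifier for 52207 genes.

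Comparisons used edgeR 4.0.16 (glmQLFit, glmQLFTest, TMM factors, filterByExpr) on the libraries of the groups named, in R 4.3.3, with Benjamini-Hochberg adjustment over all genes tested, a threshold of 0.1 and at least 2-fold, the thresholds of the study, which used DESeq2 1.24.0. Standard errors are the log2 fold change divided by the root of F. Where no library of a group exceeded 3 counts, folds relative to that group are given as bounds. Depth, 21384712 to 39722570 counts, limits genes of a few counts; the floors cover counting error only. Among 42 pairs of replicates none agreed within sampling noise. Between-gene levels are FPKM. Alternatives were DESeq2 1.42.0, other scaling, filters, fits, thresholds, limma 3.58.1 on log2(FPKM + 1) or log2(FPKM + 0.1), and leaving out each library. The scripts were tested on simulated data. The members, marker lists and partner lists were chosen with earlier results of these data known. Values per library are given for members called in cultures, in 2 or more tumor sizes, in an interaction, or in both models against cultures, and of each partner list for at most the 3 genes with the largest change among those called. Coordinates are from GENCODE vM21 on GRCm38. Promoter windows are from RefSeq; 36 members matched, and Efnb3, Ntn1, Slit1, Unc5d and Dcc did not.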

Additional observations from a re-analysis of the deposited data

Results flagged for a closer look

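In 11 of 162 groups of 4 tumors a member had 1 library far from the other 3 by Dixon's test (at its 95% critical value), where chance gives about 5 percent of groups. In CT-26 these were Unc5c in tumor c of 100 mm3 at 0.234 CPM (others 0.0844 to 0.103) and in tumor b of 400 mm3 at 0.4432 CPM (others up to 0.04276), Ephb6 in tumor b of 400 mm3 at 1.193 CPM (others 0.1919 to 0.3421), Ntn5 in tumor d of 400 mm3 at 1.112 CPM (others 3.509 to 3.546) and Ephb1 in tumor d of 800 mm3 at 1.371 CPM (others 0.3785 to 0.4718). In Colon 26 they were Efna4 in tumor d of 400 mm3 at 2.024 CPM (others 2.388 to 2.462), Epha2 in tumor a of 400 mm3 at 161.0 CPM (others 215.8 to 222.9), Epha1 in tumor b of 800 mm3 at 0.478 CPM (others 0.2582 to 0.2873), Ntn1 in tumor b of 800 mm3 at 6.303 CPM (others 7.343 to 7.489), and Ntng2 and Unc5b in tumor a of 800 mm3 at 13.03 and 218.0 CPM (others 11.21 to 11.34 and 180.9 to 185.7).

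The change from culture to tumors of 100 mm3 differed between the models for 15 members by edgeR's interaction test. On the log2 scale, the Colon 26 change minus the CT-26 change was −1.56 for Efna3, −1.13 for Efna4, −1.71 for Efnb1, 1.71 for Efnb2, −1.49 for Ephb2, −1.81 for Ephb3, 4.17 for Robo2, 3.34 for Slit1 and −3.07 for Slit3. The fitted values were 4.98 for Epha4, 4.48 for Ephb6, −4.08 for Ntn1, 1.45 for Ntn5, −7.53 for Ntng2 and 5.1 for Robo1; these 6 depend on groups with at most 3 counts per library and are neither sizes nor bounds.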

How the results depend on the processing

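No call reversed in any alternative run that tested the gene. Of the 91 called pairs of gene and comparison, 79 were called in every leave-one-out fit that tested the gene. Fits in which the gene failed the filter on low counts could not call it and are not in that count. Members called with no minimum fold were 22 of 24 tested in cultures (14 with it). At 400 and 800 mm3 they were 14 and 20 of 27 (9 and 10). Over all genes that setting called 11842 of 14334 in cultures, 7963 of 15241 at 400 mm3 and 9213 of 15521 at 800 mm3. With limma on log2(FPKM + 1), whose pseudocount shrinks genes of low FPKM, 6 members were called in cultures (all genes 1519 of 14334). In tumors of 100, 400 and 800 mm3 it called 4, 5 and 4 (13, 9 and 10 by edgeR), against 861, 951 and 914 of all genes. From culture to tumor it called 4 in CT-26 (12 by edgeR) and 4 in Colon 26 (16), against 2648 and 1946 of all genes. For the interaction with tissue it called 3 (15) and for growth in Colon 26 0 (2), against 1255 and 62 of all genes. With log2(FPKM + 0.1) the members called were 6 at 100 mm3, 6 at 800 mm3 and 1 for growth in Colon 26. The counts over all genes were 1721, 1815 and 155. From culture to tumor in CT-26, DESeq2 called 19 and the fit with no filter 20 (all genes 6147 of 20437 and 7001 of 27556). Growth in Colon 26 called 1 at an adjusted p of 0.05 and 1 with all 30 libraries in the fit (all genes 138 and 100). It called 1 to 2 when a library was left out (all genes 150 to 290). The interaction with size called 1 by DESeq2 and 0 to 1 when a library was left out (all genes 114 and 2 to 131). DESeq2 and the 0.05 threshold each lost 3 of the 91 called pairs, the fit with all libraries 3 of 89, and other scaling none. Limma lost 61 of the 91 on log2(FPKM + 1) and 29 of the 91 on log2(FPKM + 0.1). Low counts limit Epha1, Epha3, Epha4, Ephb1, Ephb6, Robo1, Robo2, Robo3, Slit1, Unc5a and Unc5c. No paired analysis was possible because the labels carry no replicate numbers.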
